A study of Mus musculus with 39 samples.

Results

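Hepatocytes make most of the proteins of blood plasma, and among them are the carriers that keep fatty acids, iron, heme, retinol, thyroid hormone and vitamin D soluble in blood. The 10 genes described here, Alb, Ttr, Trf, Hpx, Hp, Rbp4, Gc, Ahsg, Afm and Fetub, encode secreted plasma proteins, most of them carriers of this kind, and were listed by name, with no threshold on their values. All 10 have a row in the tables of both gradients, out of 13230 genes that are in both. RNA was sequenced from sucrose fractions of homogenized liver. The animals were female, of the FVB strain and wild type, and the labels do not give their age. The liver was fractionated after bead homogenization without detergent and removal of nuclei at low speed. Gradient 1 has 17 libraries (fractions 4 to 19 and 21) and gradient 2 has 22 (fractions 3 to 24), the fraction number increases with density, and all libraries are of the same untreated condition. There is 1 library for each fraction and gradient, and the 2 gradients, which the study describes as independent and biological, serve as replicates. The number of animals behind each gradient is not given in the sources used here.

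A secreted protein carries a hydrophobic signal sequence at its start. As this emerges from the ribosome, the signal recognition particle brings the ribosome and its mRNA to the membrane of the endoplasmic reticulum (ER), where the rest of the protein is made into the lumen and folded by ER chaperones before transport through the Golgi. The mRNAs of such proteins are therefore largely found on ER membranes in intact cells, whereas mRNAs of soluble intracellular carriers of the same ligands are translated by ribosomes in the cytosol. In a gradient without detergent, membranes with their attached ribosomes, free polysomes and free ribonucleoproteins can sediment to different depths.

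To show what the coding starts of these mRNAs look like, the first 75 coding bases are given for Alb (albumin, fatty acids), Gc (vitamin D-binding protein), the neighboring fetuin genes Ahsg and Fetub, and Rbp4 (plasma retinol-binding protein), with Fabp1, a cytosolic carrier of fatty acids, for contrast. Capitals mark a T at the second base of codons 2 to 25, the letter shared by codons of phenylalanine, leucine, isoleucine, methionine and valine. Sequences are 5′ to 3′ on the coding strand, from GENCODE models on GRCm38 (the same assembly as mm10). Alb starts at chr5:90460935-90461009 on the plus strand, Gc at chr5:89446553-89457718 on the minus strand in 2 exons, Ahsg at chr16:22892115-22892189 on the plus strand, Fetub at chr16:22929076-22929150 on the plus strand, Rbp4 at chr19:38124555-38124629 on the minus strand, and Fabp1 at chr6:71199927-71201615 on the plus strand in 2 exons.
Alb: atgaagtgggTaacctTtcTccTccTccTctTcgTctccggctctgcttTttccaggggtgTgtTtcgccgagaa
Gc: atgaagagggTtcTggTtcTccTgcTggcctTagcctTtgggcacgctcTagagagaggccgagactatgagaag
Ahsg: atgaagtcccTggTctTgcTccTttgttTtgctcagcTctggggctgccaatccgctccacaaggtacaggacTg
Fetub: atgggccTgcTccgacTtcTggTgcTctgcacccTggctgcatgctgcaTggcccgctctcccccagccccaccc
Rbp4: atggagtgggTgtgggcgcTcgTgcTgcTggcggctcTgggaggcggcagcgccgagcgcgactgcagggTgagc
Fabp1: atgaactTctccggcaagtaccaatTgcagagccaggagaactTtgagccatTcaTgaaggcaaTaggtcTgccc
The Alb and Gc starts hold such a T in up to 8 of 10 consecutive codons, Ahsg and Fetub in up to 7, Rbp4 in up to 6 and Fabp1 in up to 5. Over all 10 carriers the count ran from 4 in Trf to 8, and 9 of the 10 had at least 6, which 17.1% of the 10801 tested genes with a matched coding sequence reached. The window of 10 codons was chosen after the sequences were seen. The share of codons 2 to 25 with this T ran from 29.2% to 45.8% in the carriers (median 39.6%), against a median of 25% over all matched genes. The lowest carrier, Rbp4, was equal to the cytosolic Fabp1 (29.2%), the cytosolic Hebp1 was equal to Ahsg and Fetub (33.3%), and 41.3% of all matched genes had at least the share of Rbp4, so the ranges overlap. This is a description of letters, and no signal sequence was predicted from it.

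Summed, the 10 carriers were most abundant at the light end of both gradients. Values are TPM, the share of an RNA among all RNAs of 1 library on a scale of fixed total, and every library was made from the same mass of RNA. TPM totals were almost the same everywhere (998099 to 999202), so a change in TPM is a change in share, and less RNA of a gene in a fraction cannot be told apart from more RNA of other genes. Together the carriers took 6.98% of all TPM in fraction 5 of gradient 1 and 0.66% in fraction 13. In gradient 2 they took 4.77% in fraction 5, 1.04% in fraction 13, and 2.29% in fraction 24. Averaged over 4 fractions per zone, the share was 4.83% ± 1.26 (SD, n = 2 gradients) in the light zone (fractions 4 to 7), 1.02% ± 0.28 in the middle zone (10 to 13) and 1.21% ± 0.57 in the dense zone (16 to 19). Of this sum, Alb alone made up 33.2% to 60.2% in the libraries of gradient 1 and 30.6% to 53.6% in those of gradient 2. Without Alb the summed share was 2.30% ± 0.37 in the light zone, 0.65% ± 0.20 in the middle zone and 0.81% ± 0.42 in the dense zone, so the other 9 also had their highest summed share among the light fractions.

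**Figure D1:**
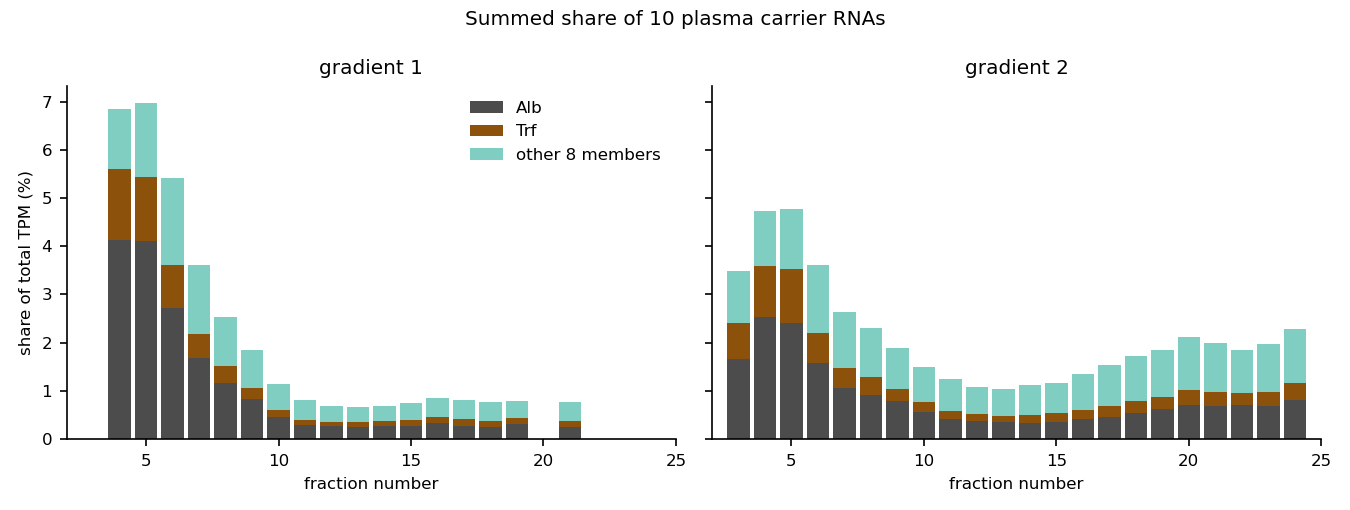
Share of total TPM (y axis, %) taken by the 10 carriers in each library by fraction number (x axis, light to dense), with Alb, Trf and the sum of the other 8 stacked, for gradient 1 (left, 17 libraries) and gradient 2 (right, 22 libraries). Both gradients have the highest bar at fraction 5 (6.98% and 4.77%), and the bars of gradient 2 run from 1.04% at fraction 13 back up to 2.29% at fraction 24.

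Between zones, 7 of the 10 carriers, Alb, Trf, Hpx, Hp, Gc, Ahsg and Afm, fell from the light to the dense zone, and Ttr, Rbp4 and Fetub did not pass the test. Zone means of log2(TPM + 1) from the 2 gradients were compared with limma across all 11754 genes that passed a filter on mean TPM, and a gene was called at an adjusted p under 0.05, so fold changes are on this scale and understate changes of low genes. Of all genes tested, 39.6% were called lower and 22.3% higher in the dense zone. All 10 carriers passed the filter. The standard errors given with the changes come from this fit without a block. They reflect a moderated spread within zones, pooled over the 3 zones, and not the spread of the change between the 2 gradients. The carriers' median change was -1.77 (log2), with -2.52 in gradient 1 and -0.83 in gradient 2, against -0.43 for all genes in the mean of the gradients. Quantile normalization moved the median of all genes to -0.05, with 3503 genes lower and 3586 higher in place of 4658 and 2616. The carriers are therefore also given relative to the median of all genes, where the 7 that fell lay between -0.98 (Hp) and -2.55 (Gc), Rbp4 at -0.22, Fetub at 0.50 and Ttr at 0.92. In 7 of 10 carriers, all 4 dense libraries had a lower TPM than all 4 light libraries in both gradients, which 34.1% of all genes also showed.

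The difference from the light zone was already present in the middle zone. The same 7 carriers fell from the light to the middle zone, where 24.1% of all genes were called lower, with a median over the 10 of -1.80 against 0.05 for all genes. Rescaling without the 50 most abundant genes moved this median of all genes to -0.07, and relative to it as deposited the 7 lay between -1.63 (Afm) and -2.73 (Trf). From the middle to the dense zone limma called 0 of 10 carriers, and 0 of 10 had an unadjusted p under 0.05, whereas 22.5% of all genes were called lower and 4.79% higher. The median of the carriers in this last comparison was 0.17, against -0.28 for all genes. Quantile normalization moved the median of all genes there to 0.05 and changed the counts from 2645 lower and 563 higher to 1608 lower and 1225 higher. With the gradient as a block, Rbp4 (log2 change -1.14) and Fetub (0.37) were also called between the light and middle zones, with adjusted p = 0.033 and 0.019 by limma, where 35.0% of all genes were then called lower and 37.2% higher.

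**Figure D2:**
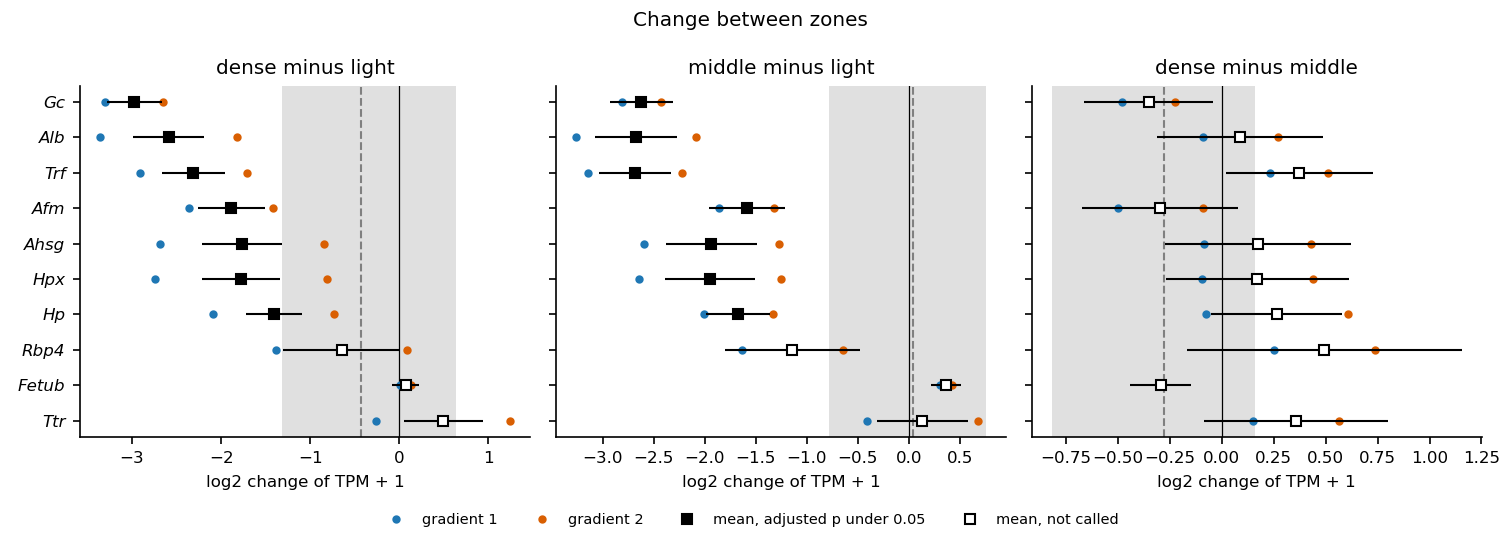
Log2 change of TPM + 1 between zones (x axis) for each carrier (y axis, ordered by center of sedimentation): squares are means of 2 gradients with the standard error, filled where limma's adjusted p is under 0.05, small points are the single gradients, the gray band runs from the lower to the upper quartile of all 11754 genes and the dashed line their median. In the left and center panels Gc, Alb, Trf, Afm, Ahsg, Hpx and Hp lie left of the band with filled squares, and in the right panel no square is filled.

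The largest changes from light to dense were those of Gc and Alb. Alb, Afm and Gc belong to the same gene family and lie on chromosome 5. Alb (ENSMUSG00000029368, chr5:90460897-90476602, plus strand, 15 exons) encodes the main protein of plasma. Afm (ENSMUSG00000029369, chr5:90518932-90553543, plus strand), with only the alpha-fetoprotein gene Afp between them, encodes afamin, a binder of vitamin E. Gc (ENSMUSG00000035540, chr5:89417522-89457898, minus strand) carries vitamin D and binds actin released from cells. In gradient 1, Alb was at 41231, 40957, 27239 and 16704 TPM in fractions 4 to 7 and at 3232, 2802, 2534 and 3068 TPM in fractions 16 to 19. In gradient 2 it was at 25392, 24125, 15818 and 10599 TPM, and then at 4212, 4678, 5351 and 6231 TPM. The zones did not overlap in either gradient, and the light level was higher and the dense level lower in gradient 1. From light to dense the log2 change was -2.59 ± 0.40 (SE, adjusted p = 0.0027, limma), with -3.35 in gradient 1 and -1.82 in gradient 2. Alb was the most abundant gene in 0 of the 39 libraries. It was at rank 2 in fractions 4 to 7 of gradient 1, and at rank 53 in fractions 18 and 21 of that gradient.

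Gc had the most negative mean change of the 10, although in gradient 1 alone that of Alb was slightly more negative. Its TPM in fractions 4 to 7 was 3108, 4367, 5642 and 3972 in gradient 1 and 4092, 4662, 5767 and 3735 in gradient 2. In fractions 16 to 19 it was 462, 404, 383 and 449 in gradient 1 and 637, 697, 730 and 807 in gradient 2. Unlike for Alb, the light levels of the gradients were close to each other, and the dense zone was below the light zone in both. The change was -2.98 ± 0.31 (SE, adjusted p = 0.00076, limma), with -3.30 and -2.65 in gradients 1 and 2. Afm is far less abundant, averaging 28.5 TPM in gradient 1 and 38.0 TPM in gradient 2 over the 17 fractions that both gradients have. In gradient 1 it ran from 52.2 to 77.8 TPM in the light zone and from 8.92 to 15.7 TPM in the dense zone. Gradient 2 had 51.7 to 74.3 TPM and 20.7 to 33.0 TPM. Its change was -1.89 ± 0.37 (SE, adjusted p = 0.0068, limma).

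The carriers of iron, heme and hemoglobin also fell. Transferrin, encoded by Trf (ENSMUSG00000032554, chr9:103204001-103230444, minus strand), carries iron to cells, hemopexin, encoded by Hpx (ENSMUSG00000030895, chr7:105591613-105600137, minus strand), binds free heme, and haptoglobin, encoded by Hp (ENSMUSG00000031722, chr8:109575128-109579172, minus strand), binds hemoglobin freed from red cells. Trf was at 14765, 13292, 8812 and 5021 TPM in fractions 4 to 7 and at 1366, 1310, 1243 and 1219 TPM in fractions 16 to 19 of gradient 1. In gradient 2 it was at 10548, 11103, 6251 and 4132 TPM, and at 1864, 2235, 2503 and 2524 TPM. Dense values were below all light values in both gradients, and the change was -2.31 ± 0.35 (SE, adjusted p = 0.0026, limma). The annotated gene Gm20425 overlaps Trf on the same strand and shares 80.7% of its 31-base words, and it has no row in either table, so how reads of the pair were divided is unknown and the level of Trf is uncertain to that extent.

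Hpx ran from 929 to 1491 TPM in the light zone of gradient 1 and from 468 to 697 TPM in that of gradient 2. In the dense zone it ran from 154 to 201 TPM and from 289 to 402 TPM. The ranges did not overlap within a gradient, and the fall was larger in gradient 1 (-2.74) than in gradient 2 (-0.81), giving -1.78 ± 0.44 (SE, adjusted p = 0.015, limma). Hp ran from 700 to 907 TPM in light and from 172 to 189 TPM in dense fractions of gradient 1. In gradient 2 it ran from 442 to 591 TPM and from 242 to 345 TPM. Its change was -1.41 ± 0.32 (SE, adjusted p = 0.010, limma), the smallest of the 7 called, with -2.09 in gradient 1 and -0.73 in gradient 2.

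Retinol-binding protein and transthyretin circulate as a complex, in which Rbp4 (ENSMUSG00000024990, chr19:38116629-38125281, minus strand) holds retinol and transthyretin, which also carries thyroxine, keeps it from loss through the kidney. Their RNAs gave different profiles in the 2 gradients. In fractions 4 to 7, Rbp4 was at 1645, 1849, 1809 and 1618 TPM in gradient 1 and at 2233, 2200, 2025 and 1948 TPM in gradient 2. In fractions 16 to 19 it was at 685, 712, 635 and 614 TPM in gradient 1, below all its light values, and at 1855, 2126, 2429 and 2603 TPM in gradient 2, where the zones overlapped. The change was -1.39 in gradient 1 and 0.09 in gradient 2, and the mean of -0.65 ± 0.66 (SE) did not pass the test (adjusted p = 0.42, limma).

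Ttr (ENSMUSG00000061808, chr18:20665280-20674321, plus strand) was the carrier with the densest center in the mean and in gradient 2 (13.5), whereas in gradient 1 Fetub (11.9) was denser than Ttr (11.5). In gradient 1 it was at 1281, 1524, 2123 and 2471 TPM in fractions 4 to 7 and at 1524, 1650, 1607 and 1232 TPM in fractions 16 to 19, so the zones overlapped. In gradient 2 all dense values (2842, 3306, 3620 and 3474 TPM) were above all light values (1128, 1160, 1544 and 1860 TPM). The change was -0.26 in gradient 1 and 1.24 in gradient 2, with a mean of 0.49 ± 0.44 (SE, adjusted p = 0.37, limma). Ttr was highest in fraction 7 of gradient 1 (2471 TPM) and in fraction 20 of gradient 2 (3743 TPM), and Pearson's R between its profiles in the 2 gradients was -0.19 (17 fractions), a value that 99.5% of all genes exceeded.

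Of the 2 fetuins, Ahsg fell and Fetub did not pass the test. Ahsg (ENSMUSG00000022868, chr16:22891277-22899449, plus strand) encodes fetuin-A, which binds calcium phosphate, and Fetub (ENSMUSG00000022871, chr16:22918334-22939778, plus strand) encodes fetuin-B, an inhibitor of the protease that hardens the coat of the egg. They are relatives of the cystatin family and lie next to each other, 18884 bp apart. In fractions 4 to 7, Ahsg was at 4602, 5331, 5937 and 4413 TPM in gradient 1 and at 2846, 2948, 3166 and 2780 TPM in gradient 2. In fractions 16 to 19 it was at 799, 785, 744 and 802 TPM in gradient 1 and at 1337, 1536, 1799 and 1934 TPM in gradient 2. All dense values were below all light values, and the change was -1.76 ± 0.45 (SE, adjusted p = 0.017, limma), with -2.68 and -0.84 in gradients 1 and 2. Fetub was at 118, 112, 113 and 128 TPM in fractions 4 to 7 of gradient 1 and at 125, 124, 141 and 90.3 TPM in fractions 16 to 19. In gradient 2 it was at 115, 121, 106 and 132 TPM, and at 125, 124, 144 and 125 TPM. Light and dense values overlapped in both gradients, and the change was 0.07 ± 0.15 (SE, adjusted p = 0.69, limma), or -0.065 with quantile normalization.

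Fetub varied least along the gradient, by 1.90-fold between its lowest and highest library in gradient 1 and by 1.88-fold in gradient 2, against 16.3-fold and 7.47-fold for Alb. Its highest library was fraction 9 in gradient 1 (172 TPM) and fraction 24, the densest and not among the libraries of gradient 1, in gradient 2 (198 TPM). The standard error of its change is the smallest of the 10, so the interval around 0 is narrower than for Rbp4 and Ttr. The difference between Ahsg and Fetub was not tested. The next gene after Fetub, Hrg (histidine-rich glycoprotein, also with cystatin domains), fell by 2.88 on the log2 scale from the light to the dense zone (SE 0.52, adjusted p = 0.0047, limma). Annotated genes overlap Ahsg (Gm30505) and Afm (Gm42109) on the other strand, and the use of strand in counting is not stated in the sources used here.

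**Figure D3:**
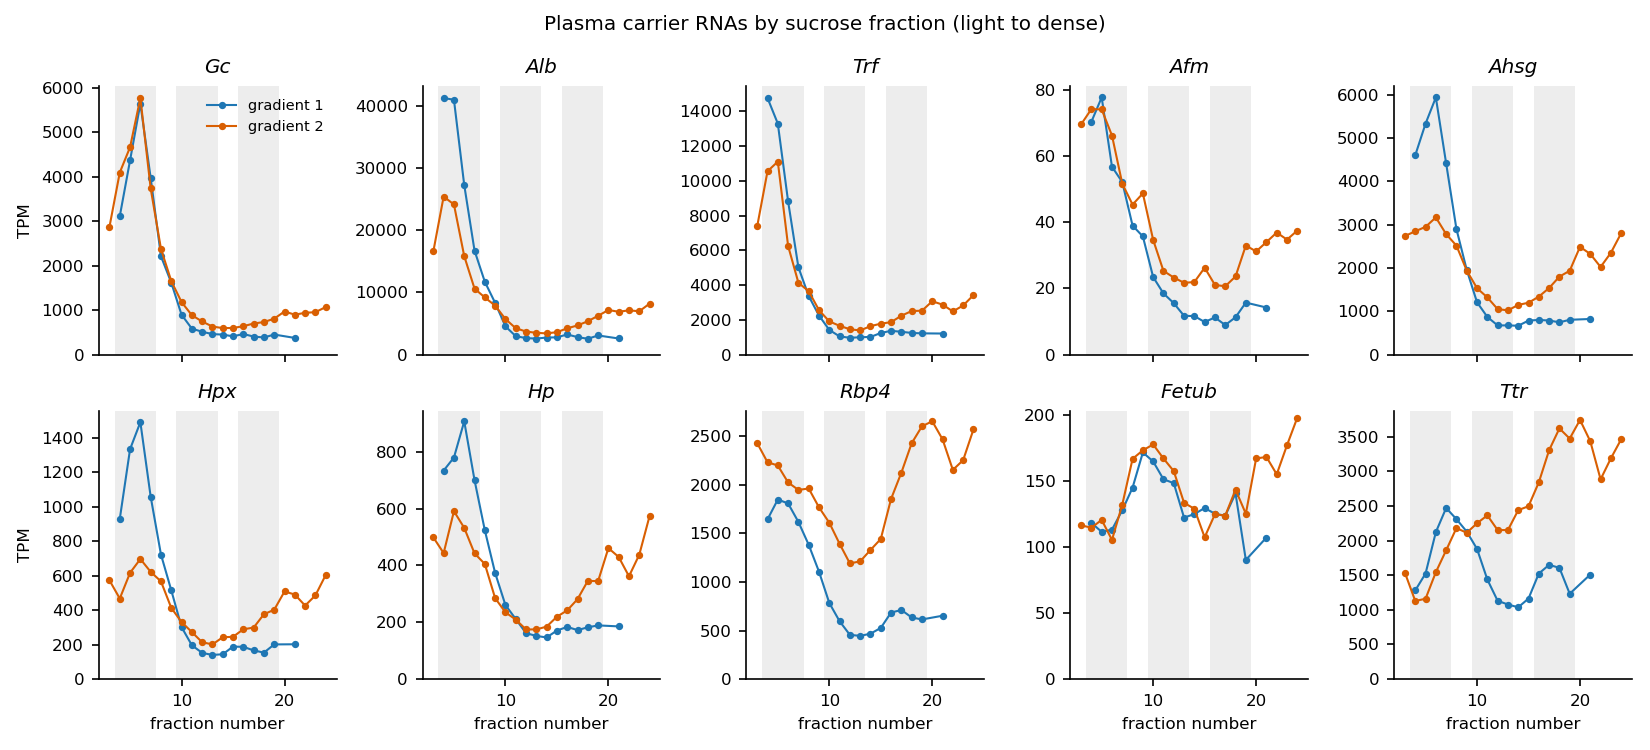
TPM (y axis, a scale of its own in each panel) of the 10 carriers by fraction number (x axis) in gradient 1 (blue, 17 libraries) and gradient 2 (orange, 22 libraries), with the light, middle and dense zones shaded. Gc peaks at fraction 6 in both gradients (5642 and 5767 TPM), Fetub stays between 90.3 and 198 TPM, and Ttr and Rbp4 of gradient 2 are highest at fraction 20.

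Within the light zone the carriers did not all have the same peak. Alb was highest in fraction 4 in both gradients, Trf in fractions 4 and 5, and Afm in fractions 5 and 4 of gradients 1 and 2, whereas Gc, Hpx and Ahsg were highest in fraction 6 in both and Hp in fractions 6 and 5. From fraction 4 to fraction 6, the log2 ratio of TPM was -0.60 and -0.68 for Alb and -0.74 and -0.75 for Trf in gradients 1 and 2. Over the same step it was 0.86 and 0.50 for Gc and 0.68 and 0.58 for Hpx. The TPM of fraction 6 was above that of fraction 4 for 6 of 10 carriers in gradient 1 and for 5 of 10 in gradient 2, against 67.0% and 69.2% of all genes. Each of these values is from a single library per gradient, and no test was made.

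Toward the dense end, most values were again above those of fraction 13, where the carriers' mean profile was lowest in both gradients, so that a higher value elsewhere is in part given by the choice of this fraction. From fraction 13 to fraction 21, all 10 had a higher TPM in gradient 2, with log2 ratios from 0.33 (Fetub) to 1.30 (Hp), and 8 of 10 in gradient 1, with ratios from -0.30 (Gc) to 0.55 (Rbp4). Of all genes, whose own lowest fraction can be another, 38.0% were higher in fraction 21 in gradient 1 and 33.6% in gradient 2, and nothing is read from the comparison of these shares. Alb went from 2562 to 2579 TPM in gradient 1 and from 3489 to 6877 TPM in gradient 2, and Hpx from 140 to 202 TPM and from 201 to 491 TPM. For these members the dense end of gradient 2 lay above that of gradient 1. These are single libraries with no test, and between the middle and dense zones limma called 0 of the 10. No fraction beyond 21 is among the libraries of gradient 1.

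The center of sedimentation, which averages fraction numbers with TPM as weights over the 17 fractions common to both gradients, ordered the carriers from light to dense. It was 8.14 ± 0.45 (SD, n = 2 gradients) for Gc, 8.26 ± 1.40 for Alb, 8.45 ± 1.23 for Trf, 9.46 ± 1.01 for Afm, 9.70 ± 1.89 for Ahsg, 9.71 ± 1.93 for Hpx and 10.2 ± 1.51 for Hp. Rbp4 followed at 11.1 ± 1.64, Fetub at 12.0 ± 0.19 and Ttr at 12.5 ± 1.44. Each neighbor in this order differed from the next by less than the larger of the SDs of the pair. All genes had a median of 11.2, 8 of the 10 carriers lay below it, and Gc was at percentile 4.68 and Ttr at percentile 71.0. All 10 centers were denser in gradient 2, from 0.27 fractions (Fetub) to 2.73 fractions (Hpx), while 42.2% of all genes had a denser center in gradient 2 and the median difference of all genes was -0.09 fractions.

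Among the carriers, a longer coding sequence went with a lighter center. Their coding lengths ran from 147 codons (Ttr) and 201 (Rbp4) over 345 (Ahsg), 347 (Hp), 388 (Fetub), 460 (Hpx) and 476 (Gc) to 608 (Alb and Afm) and 697 (Trf). Across the 10 genes, log10 coding length and center had a Pearson's r of -0.81 and a Spearman's rho of -0.78, with r = -0.71 in gradient 1 and -0.85 in gradient 2. Across the 10801 tested genes with a coding length, r was 0.13 and rho 0.13. For other secreted proteins no r was computed, so the relation is not called particular to the carriers. The apolipoproteins Apob (13515 coding bases) and Apoa2 (306), chosen as extremes of their list, had centers of 7.30 and 13.0. Genes are not independent replicates, Alb, Afm and Gc share a family and a chromosome, so this is a description of these genes.

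**Figure D4:**
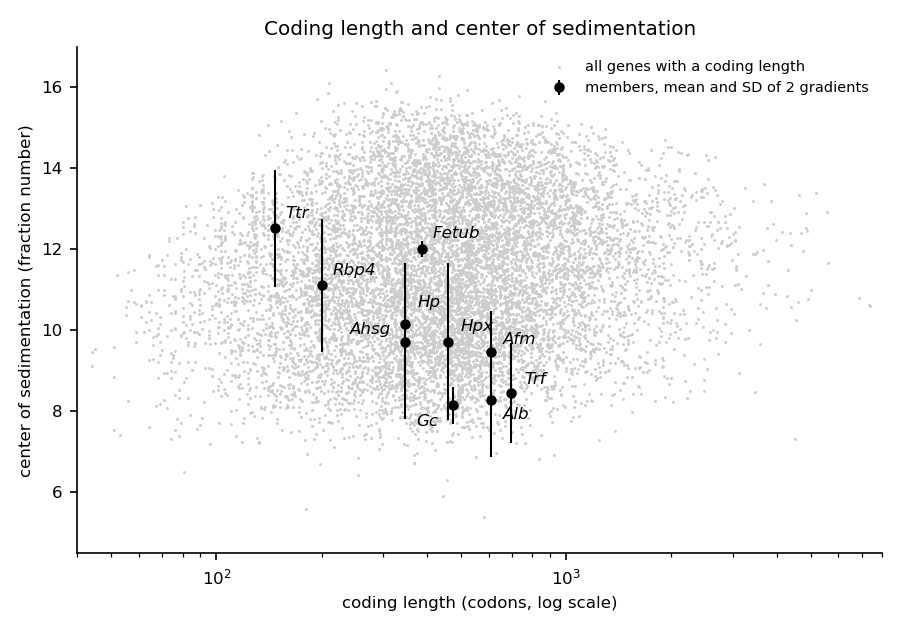
Center of sedimentation (y axis, fraction number) against coding length in codons (x axis, log scale) for the 10 carriers (black, mean and SD of 2 gradients) over all 10801 genes with a coding length (gray). The carriers run from Ttr (147 codons, center 12.5) at the upper left to Trf (697 codons, center 8.45) at the lower right, and the gray cloud has r = 0.13.

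Profiles of the carriers resembled each other in part. Over the 22 fractions of gradient 2 the median Pearson's R of the 45 pairs was 0.65, and over the 17 fractions of gradient 1 it was 0.88, where neighboring fractions come from the same tube and are not independent. The highest R in gradient 2 was that of Alb and Trf (0.99), followed by Hpx and Ahsg (0.98) and Ahsg and Hp (0.96), and the lowest was that of Ttr and Gc (-0.74). Alb and its relative Afm had R = 0.95 in gradient 2 and 0.96 in gradient 1, whereas the neighbors Ahsg and Fetub had -0.02 and -0.22, and the partners Ttr and Rbp4 had 0.39 and 0.62. Between the gradients, R over 17 fractions was 0.99 for Gc, Alb and Trf, 0.98 for Afm, and from 0.84 to 0.89 for Hp, Hpx and Ahsg. It was 0.68 for Fetub and 0.39 for Rbp4, against a median of 0.90 for all genes.

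Outside the carriers, profiles were compared for genes averaging 10 TPM or more in each gradient. Those most like the carriers' mean profile in gradient 2 were Cyp4f14 (R = 0.98), a fatty acid hydroxylase of the cytochrome P450 family, Cd1d1 (0.98), a cell-surface presenter of lipid antigens, Lamp1 (0.98), a lysosomal membrane protein, Ces3a (0.97), a carboxylesterase, and Slc20a2 (0.97), a phosphate transporter. In gradient 1 their R with the mean profile was between 0.98 and 0.99, at ranks 3, 87, 2, 5 and 60 of 6589 candidates. For Alb alone they were Met, the receptor of hepatocyte growth factor, Serinc3, a membrane protein, Cyp4v3, another P450, Mttp, which loads lipid onto apolipoprotein B, and Aplp2, a relative of the amyloid precursor, with R of 0.99 each in gradient 2 and from 0.98 to 0.999 in gradient 1. Mttp had the highest R with Alb of 6589 candidates in gradient 1, where Met was at rank 90, Serinc3 at 70, Cyp4v3 at 63 and Aplp2 at 42. These correlations share the fractions and the high values at the light end, and no test was made.

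Cytosolic carriers of the same ligands were compared with the secreted ones. In 4 of the 5 pairs described here, 2 of which share Trf, the cytosolic carrier had the higher change between the light and dense zones, in the mean and in each gradient. However, Alb, Trf, Hpx and Afm all lay below the lower quartile of all genes (-1.32). Most genes of any kind would therefore have the higher change beside them, and nothing is read from this count. Fabp1, which binds fatty acids within hepatocytes, rose by 2.95 ± 0.29 (log2, SE, adjusted p = 0.00067, limma), where Alb had a change of -2.59. Its highest value was 89500 TPM in gradient 1 and 54786 TPM in gradient 2, in fraction 13 of both, where Alb was at 2562 and 3489 TPM. Hebp1, a heme-binding protein of the cytosol, rose by 2.99 ± 0.21 (adjusted p = 0.00032, limma), where Hpx had -1.78. The ferritin subunits Fth1 and Ftl1, which store iron, had changes of -0.02 ± 0.39 and 0.28 ± 0.54 (adjusted p = 0.96 and 0.67, limma), with opposite signs in the 2 gradients, where Trf had -2.31. Ttpa, the tocopherol transfer protein of the cytosol, was the exception. It fell by 2.44 on the log2 scale (SE 0.18, adjusted p = 0.00035, limma), where Afm had -1.89. The differences within pairs were not tested.

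**Figure D5:**
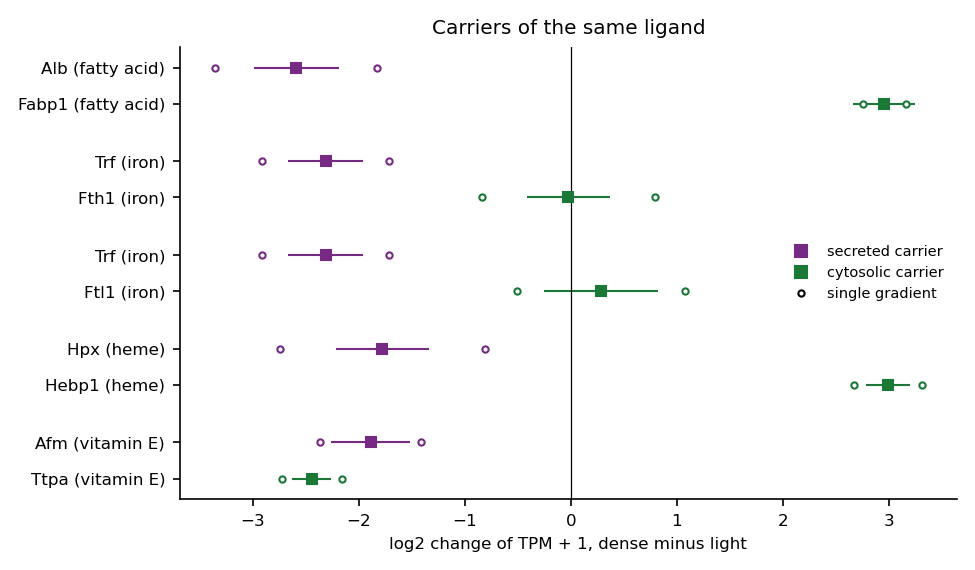
Log2 change of TPM + 1, dense minus light zone (x axis), for secreted carriers (purple) and cytosolic carriers (green) of the same ligand, squares being means of 2 gradients with the standard error and open circles the single gradients. Fabp1 and Hebp1 lie at 2.95 and 2.99 opposite Alb at -2.59 and Hpx at -1.78, and Ttpa lies at -2.44 beside Afm at -1.89.

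The list of cytosolic carriers as a whole held 17 tested genes, of which 9 were called higher and 3 lower at the dense end, and its median was 1.04. With the gradient as a block, Mt2, named for this change of call, was also called lower (adjusted p = 0.030, limma). Extremes of the lists are those of the mean of the gradients. Fabp4 had the most positive change (3.09) and Ttpa the most negative. The lists are read against the shares of all tested genes called between these zones, 39.6% lower and 22.3% higher. With the gradient as a block, 50.0% were lower and 3589 of the 11754 genes higher. Of 15 other plasma carriers, 8 were called lower (12 with the block) and 0 higher, with a median of -1.37, from Hrg at -2.88 to Apom, which carries sphingosine phosphate, at 0.64 (adjusted p = 0.36, limma). Apom was the only one of them with a positive mean change (unadjusted p = 0.30, limma), with -0.20 in gradient 1 and 1.47 in gradient 2, and in gradient 2 alone Orm1 (0.28) and Orm2 (0.86) were also positive. The 25 tested coagulation and complement genes had 19 called lower (24 with the block) and 0 higher, with a median of -1.48, and ran from F9 (-3.40), coagulation factor IX, to C8g at -0.07, which had 0.47 in gradient 2 alone and 0.028 with the inner 2 fractions of each zone. The 13 apolipoproteins had 2 called lower (5 with the block) and 2 higher, with a median of -0.44 that differed in sign between gradient 1 (-1.29) and gradient 2 (0.28). Apob, the scaffold of very low density lipoprotein and a very long protein, had the most negative change (-3.72, adjusted p = 0.00038, limma), and the short Apoa2 of high density lipoprotein the most positive (1.25, adjusted p = 0.038, limma), a call that was lost with gradient 2 shifted by 1 fraction or without the 50 most abundant genes (adjusted p = 0.053 in both).

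A list of receptors, with transporters and enzymes that handle the carriers' ligands, had 10 of 12 tested genes called lower and 1 higher, beside 39.6% and 22.3% of all genes. Called lower were the transferrin receptors Tfrc (log2 change -2.22) and Tfr2 (-0.66), the iron exporter Slc40a1 (-2.33), the hemopexin receptor Lrp1 (-1.32), and Fcgrt, which returns albumin to the blood (-0.75). Cd163, the receptor of haptoglobin with hemoglobin, was the 1 gene of the list that was not called (-0.93, adjusted p = 0.073, limma, and 0.0045 with the gradient as a block). These genes were named for their ligands after their values were known. Lrat, which esterifies retinol, had the most negative change (-2.72), and Hmox1, which degrades heme, was the gene called higher (1.66, adjusted p = 0.017, limma). Lrat is low, averaging 5.42 TPM, and is also among the stellate cell markers used below. The ER entry and folding list had 14 of 24 genes called lower and 1 higher, beside the same shares of all genes, with a median of -1.54. With the gradient as a block, Sec11a, Sec11c and Pdia3 were also called lower (adjusted p = 0.049, 0.0037 and 0.0052, limma), and they are named for this change of call. Canx, a lectin chaperone of the ER membrane, had the most negative change (-2.90, adjusted p = 0.00099, limma), and Spcs1, a small subunit of signal peptidase, the most positive (1.02, adjusted p = 0.066, limma, and 0.016 with the gradient as a block).

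The liver label was checked against marker genes of its cell types. The 9 hepatocyte markers, all above 0 in all 24 zone libraries, summed to 8082 to 14543 TPM in light and 22196 to 38721 TPM in dense libraries, with 3 called lower and 5 higher. Markers of other cells were far lower: the 6 Kupffer cell markers summed to 121 to 178 TPM in light and 42.9 to 56.0 TPM in dense libraries (5 called lower), the 6 stellate cell markers to 52.4 to 94.4 and 14.4 to 27.1 TPM (5 lower), and the 6 sinusoidal endothelial markers to 45.8 to 89.3 and 18.8 to 38.5 TPM (4 of 5 tested lower, Lyve1 at 0 in some libraries). The 3 erythroid markers in both tables summed to 258 to 496 and 66.4 to 106 TPM (2 lower, Hba-a2 at 0 in some libraries), the 4 of cholangiocytes to at most 9.43 TPM (Krt19 and Krt7 at 0 in some libraries), and Cela2a, the 1 of the exocrine pancreas, to at most 6.85 TPM. Epcam, Hbb-bs, Hbb-bt, Cpa1, Pnlip, Ctrb1 and Cel were not analysed here. Most markers of Kupffer, stellate, endothelial and erythroid cells thus fell together with the carriers, where 39.6% of all tested genes were called lower. Their part in the result was not tested.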

How the data were processed

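RNA of 39 libraries was measured, 17 of gradient 1 and 22 of gradient 2. The authors depleted ribosomal RNA, made stranded libraries from equal masses of RNA, converted reads with bcl2fastq 2.16.0.10 (per the labels), pseudo-aligned them with Kallisto to RefSeq transcripts (mm10) and then deposited TPM for each gene symbol whose TPM exceeded 1 in some fraction. The version of Kallisto and the summing of transcripts to genes are not given in the sources used here. All value columns were matched to samples. TPM keeps no counts, so depth and counting error are unknown and precision is known only from the spread between gradients.

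Zone means of log2(TPM + 1) over 4 fractions per gradient (24 libraries, 6 means) were compared with limma 3.58.1 (R 4.3.3, trend in eBayes, no block) for the 11754 genes averaging 1 TPM or more over the zone libraries, with Benjamini-Hochberg adjustment and a threshold of 0.05. Log2 changes of 1 fraction against another use TPM without a pseudocount. The script was tested on simulated data. Centers, shares and correlations are descriptions, since 2 against 2 gradients cannot give an exact p below 0.333. Zones of 1 gradient share a homogenate, so gradients pair them: deviations from the mean of the gradients correlated over genes between light and middle (r = 0.66), light and dense (0.54) and middle and dense zones (0.80), and the gradient was used as a block in an alternative.

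Named were all 10 members, both genes of each ligand pair, the 5 genes most similar to the members' mean profile and to Alb, and the extremes of each list in the change from light to dense. Genes named outside this rule are said to be so, and a further ligand pair is not reported here. The members, listed by name, and the lists and tests were chosen with earlier results of these data known. Coding lengths, exons and positions come from GENCODE M21 on GRCm38, in place of a RefSeq protein table that was not used here, and 91.9% of tested genes matched. Alternatives were the pseudocount, filters, rescaling without the 50 most abundant genes, quantile normalization, zone borders, a shift of gradient 2 and single gradients. Python 3.11.15 was used with matplotlib 3.10.9, SciPy 1.17.1, pandas 2.3.3 and NumPy 2.4.6.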

Additional observations from a re-analysis of the deposited data

How the results depend on the processing

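Alb, Trf, Hpx, Hp, Gc, Ahsg and Afm remained called in both comparisons with the light zone under the 8 alternatives that have a test, with adjusted p of at most 0.021, and 0 carriers were called between the middle and dense zones under any of them. Of 240 values of single carriers under these alternatives, 233 kept their sign and side of the threshold, 3 became called (Rbp4 and Fetub with the gradient as a replicate block, given in the report, and Fetub between the light and middle zones with the inner 2 fractions, 0.47, adjusted p = 0.043) and 4 uncalled values changed sign: Fetub from light to dense (-0.065), Alb (-0.27) and Afm (0.056) from middle to dense with quantile normalization, and Ttr from light to middle without the 50 most abundant genes (-0.0031). Among other named genes, Fth1 changed sign with the inner fractions (0.16) and with shifted fractions (0.24), and C8g with the inner fractions (0.028). Counts over all genes moved by over 1.5 times from 7274 to 4798 (light to dense, mean TPM of at least 10, where 7233 genes were tested), from 5589 to 8478 (light to middle, replicate block), and from 3208 to 1919 (middle to dense, shift by 1 fraction) and 6275 (replicate block). The block changed no other call of the 10 carriers between the zones. In the lists, genes lower in the dense zone went from 8 to 4 for other plasma carriers at a mean TPM of at least 10 and from 2 to 5 for apolipoproteins with the block, genes higher from 2 to 1 for apolipoproteins without the 50 most abundant genes and to 0 with the shift, and from 1 to 2 (inner fractions, block) or 0 (shift) for ER entry and folding.

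With single gradients the median change of the carriers was between -2.52 (gradient 1) and -0.83 (gradient 2) from light to dense, -2.31 and -1.30 from light to middle, and -0.09 and 0.43 from middle to dense, with no test. The median center of the carriers was 9.70, 11.7 with log2(TPM + 1) as weights (all genes 11.8), and 8.55 or 11.1 with single gradients. The median pairwise R was 0.65 in gradient 2 and 0.88 in gradient 1. The carriers' share in the light zone was 4.83%, or 2.30% without Alb. The r of coding length with center was between -0.71 and -0.85 with single gradients. The cause of these shifts was not tested, apart from the fewer genes tested or the left-out gene. The depth of the libraries is unknown, so the counting error of a low gene such as Afm is not known, and with 2 gradients the spread is estimated from few values.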

Other observations

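Genes of other secreted plasma proteins were measured beside the carriers. Afp, the alpha-fetoprotein gene between Alb and Afm, had a log2 change of -2.49 from the light to the dense zone and was called lower, as was the copper protein ceruloplasmin, Cp, with -2.29. Serpina7, the thyroxine-binding globulin, fell by 1.37 on the log2 scale, with -1.98 in gradient 1 and -0.77 in gradient 2, where the thyroxine carrier Ttr had -0.26 and 1.24. The difference between them was not tested. Serpina6, which binds corticosteroids, had -1.55 and was not called (adjusted p = 0.25, limma, and 0.012 with the gradient as a block), with -2.36 in gradient 1 and -0.73 in gradient 2. The orosomucoids, which bind drugs, had -0.31 (Orm1), -0.28 (Orm2) and -1.09 (Orm3), and none of the 3 was called without the block, whereas Orm3 was called with it (adjusted p = 0.0013, limma). These genes were singled out after their values were seen.

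Within the ER list, subunits of the translocon differed in sign. Sec61a1, its pore, fell by 2.58, while the small tail-anchored Sec61b rose by 0.93 and Sec61g had 0.18 and was not called. Of the signal peptidase, Spcs3 fell by 2.39, and Spcs2 had -0.06 and was not called. The folding enzymes P4hb (-2.73) and Pdia4 (-1.54) and the chaperones Calr (-2.16) and Hspa5 (-1.87) were called lower. Pdia3, another folding enzyme, had -1.55 and was not called without the block (adjusted p = 0.0501, limma). These genes were also named after their values were seen.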
